A study of Mus musculus with 6 samples.

Results

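The genes described here encode subunits of RNA polymerase I, II and III (Pol I, II and III), the enzymes that copy nuclear DNA into RNA. Members were all genes whose symbol begins with Polr1, Polr2 or Polr3, which gave 27 of the 19938 genes measured. These were 5 Polr1, 13 Polr2 and 9 Polr3 genes. Each gene was read from the probe set that names only its symbol in the platform annotation and is brightest over the 6 arrays. The mean over these arrays includes the antibody groups, so this choice can favour a probe set that rises. The symbol is not the same as the polymerase, since some subunits are built into several polymerases. By their known place, 3 members belong to Pol I only, 2 to Pol I and III, 5 to all of Pol I, II and III, 8 to Pol II only and 9 to Pol III only.

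The cells were BDC2.5 CD4 T cells, which carry a transgenic receptor for a pancreatic islet antigen and had been transferred into NOD mice, a strain that develops autoimmune diabetes. The mice were female and 7 weeks old. They received 100 ng of an antibody against DEC205 (anti-DEC205-BDC) or against DCIR2 (anti-DCIR2-BDC), each linked to an antigen for BDC2.5 T cells, or PBS as the control. DEC205 and DCIR2 are endocytic receptors on different dendritic cell subsets, so the comparison sets antigen delivered to different dendritic cells side by side. After 14 h, Thy1.1+ CD4+ cells were sorted from the spleen, and RNA was amplified and hybridised to Affymetrix arrays, with 2 arrays labelled as biological duplicates in each group. All groups received transferred BDC2.5 cells, and antibody without antigen was not analysed here, so an effect of antigen and one of the antibody cannot be told apart. The labels do not say how many mice gave the cells of an array, so the p-values rest only on spread between these arrays. Part of that spread is borrowed from other genes of similar signal.

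Pol I transcribes the ribosomal RNA precursor in the nucleolus, Pol II transcribes messenger RNAs and most small nuclear RNAs, and Pol III transcribes transfer RNAs, 5S ribosomal RNA and other short RNAs. Each enzyme has a catalytic core made of a large pair of subunits, to which smaller subunits, some shared, are added. A T cell that leaves rest grows and makes ribosomes before it divides, a phase in which rRNA and tRNA synthesis are known to increase.

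Values are log2 signals after RMA, a method that corrects background and normalises arrays together, so a difference of 1 is a doubling of signal. The array medians lay between 5.43 and 5.56. Arrays of the same group correlated at 0.983 to 0.988 over all genes, and arrays of different groups at 0.929 to 0.984. Of the CD4 T cell markers, 6 of 8 were measured. None passed the test after anti-DEC205-BDC. After anti-DCIR2-BDC 4 fell, where 7.82% of all genes fell. These were Cd3d, Cd3e, Cd3g and Cd4, by 1.03, 0.74, 1.24 and 0.60 on the log2 scale. Only Cd5 had a change above 0, at 0.20 after anti-DEC205-BDC and 0.04 after anti-DCIR2-BDC, and it did not pass. Both anti-DEC205-BDC arrays lay below both PBS arrays for 4 of the 6 and above for 0, against 26.5% and 22.2% of all genes. For anti-DCIR2-BDC these counts were 5 and 0, against 31.9% and 23.4%. The summed linear signal of the CD4 T cell list was 14648 to 14869 in the PBS arrays, 10747 to 12081 after anti-DEC205-BDC and 8535 to 9037 after anti-DCIR2-BDC. Among 2 CD8 T cell, 5 B cell and 12 dendritic cell or macrophage markers, none passed in either comparison with PBS. Over all genes 8.84% and 17.9% passed. Both anti-DCIR2-BDC arrays lay below both PBS arrays for 6 of the 12 dendritic cell or macrophage markers and above for 0. Over all genes 31.9% and 23.4% did so. The summed linear signal of these 12 was 697 to 700 in PBS, 639 to 707 after anti-DEC205-BDC and 511 to 598 after anti-DCIR2-BDC. Of 5 natural killer cell markers, Eomes, which activated T cells also express, rose after both antibodies, and Klrk1 fell after anti-DCIR2-BDC. The part of these marker shifts in the results was not tested. In sorted bulk cells, fewer cells of a type and less RNA per cell cannot be told apart.

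Polymerase subunit genes were mostly higher after either antibody than after PBS. A gene was called where limma's two-sided test, fitted to all 6 arrays, gave an adjusted p of at most 0.05 over all genes (Benjamini-Hochberg). After anti-DEC205-BDC, 12 of the 27 members rose and 1 fell, where 5.32% of all genes rose, 3.53% fell and 8.84% did either. The members' median log2 change was 0.67 against -0.03 over all genes. After anti-DCIR2-BDC, 20 rose and 1 fell, where 10.1% of all genes rose, 7.82% fell and 17.9% did either, and the medians were 0.93 and -0.05. Centring every array on its median raised all changes against PBS by 0.07 for anti-DEC205-BDC and by 0.11 for anti-DCIR2-BDC. Over all genes it moved the calls from 1060 risen and 703 fallen to 1186 and 498, and from 2008 and 1560 to 2394 and 1173. Counted by arrays alone, both anti-DEC205-BDC arrays lay above both PBS arrays for 20 members and below for 2, where 22.2% and 26.5% of all genes did so. Both anti-DCIR2-BDC arrays lay above both PBS arrays for 22 members and below for 1, where 23.4% and 31.9% of all genes did so. Both comparisons use the same PBS arrays and are not independent.

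**Figure D1:**
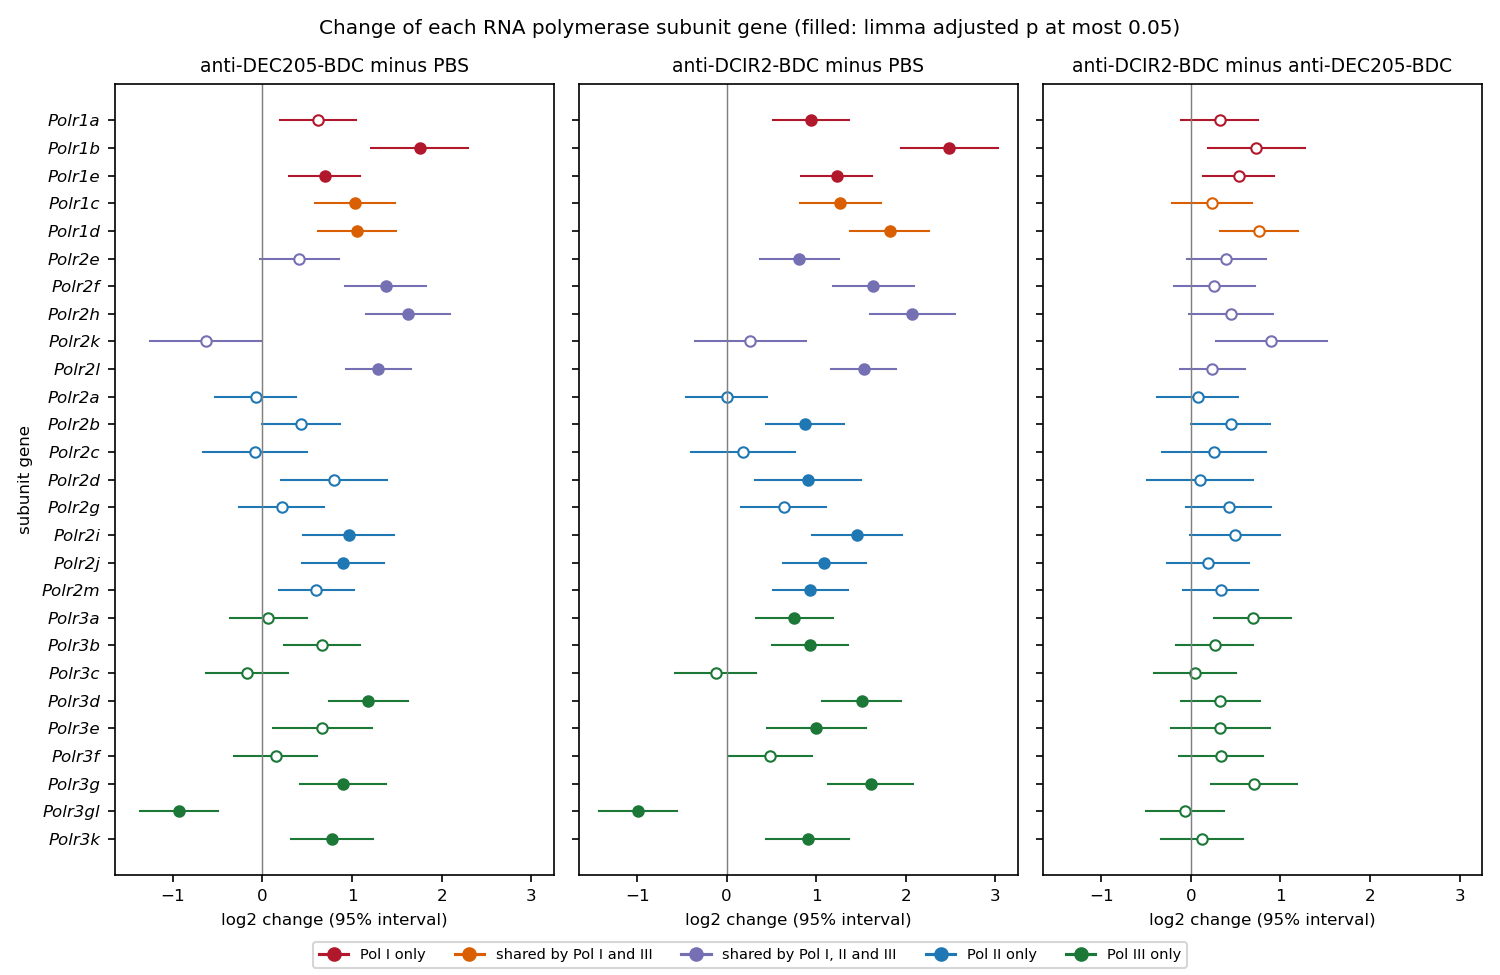
Log2 change of each of the 27 subunit genes (points) with its 95% interval (lines) in the comparisons of anti-DEC205-BDC with PBS (left), anti-DCIR2-BDC with PBS (middle) and anti-DCIR2-BDC with anti-DEC205-BDC (right). Colours give the polymerase that holds the subunit, and filled points passed limma's test at an adjusted p of at most 0.05. There are 13 filled points on the left, 21 in the middle and 0 on the right, and Polr3gl is the filled point below 0 in the left and middle panels.

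These counts changed when single arrays were left out. That also leaves 1 array in a group and weakens the test for every gene, and these effects were not told apart. After anti-DEC205-BDC the count of members that rose went from 12 to 7 without PBS array 2, to 5 without anti-DEC205-BDC array 2 and to 5 when every probe set was tested. Under all 17 alternatives, 5 of the 12 kept their call, namely Polr1b, Polr2f, Polr2h, Polr2l and Polr3d. After anti-DCIR2-BDC the count that rose went from 20 to 10 without anti-DCIR2-BDC array 2. Here 10 of the 20 kept their call under all 17 alternatives, and these were Polr1b, Polr1c, Polr1d, Polr1e, Polr2f, Polr2h, Polr2i, Polr2l, Polr3d and Polr3g. None of the alternatives read a gene from its other probe set alone. For Polr2h that probe set gave changes of 0.45 and 0.68, neither called when every probe set was tested. Other members passed under some alternatives only. After anti-DEC205-BDC these were Polr3b under 6 of the 17, Polr1a under 3, Polr2d under 2, one of them without anti-DEC205-BDC array 1, and Polr2m and Polr3e under 1 each. After anti-DCIR2-BDC it was Polr2g under 4, one of them without PBS array 1 (limma adjusted p = 0.0193, range 0.0193 to 0.387). The arrays of a group also differed together. Array 2 was higher than array 1 for 20 of the 27 members within the anti-DEC205-BDC group and for 24 within the anti-DCIR2-BDC group, against 55.9% and 48.2% of all genes. Within the PBS group it was higher for 12 of the 27, against 49.5% of all genes.

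All 5 Polr1 genes rose after anti-DCIR2-BDC, and all except Polr1a rose after anti-DEC205-BDC, with median log2 changes of 1.27 and 1.03. The shares of all genes that rose were 10.1% and 5.32%. Polr1b, the smaller of the catalytic pair of Pol I, had the largest change of all 27 members in both comparisons with PBS. In array order 1 and 2, its log2 values were 6.20 and 6.35 in PBS, 7.76 and 8.31 after anti-DEC205-BDC and 8.52 and 9.01 after anti-DCIR2-BDC. The groups did not overlap, and every anti-DCIR2-BDC array stood above every anti-DEC205-BDC array. Its log2 change was 1.76 (SE 0.244, limma adjusted p = 0.00219), or 3.38-fold, after anti-DEC205-BDC. After anti-DCIR2-BDC the change was 2.49 (same SE, limma adjusted p = 0.000110), or 5.61-fold.

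Polr1a, the largest Pol I subunit and the partner of Polr1b in the active site, passed after anti-DCIR2-BDC only. It read 7.63 and 7.69 in PBS, 8.14 and 8.41 after anti-DEC205-BDC and 8.49 and 8.71 after anti-DCIR2-BDC. The 3 groups did not overlap here either. Its log2 change of 0.62 after anti-DEC205-BDC missed the threshold (limma adjusted p = 0.0797), and it rose by 0.94 after anti-DCIR2-BDC (limma adjusted p = 0.00617). Without anti-DCIR2-BDC array 2 the second call was lost, at an adjusted p of 0.0694 (range over the alternatives 0.00221 to 0.0694).

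Polr1e encodes a subunit that helps Pol I start and elongate as part of a dimer on the outside of the enzyme. It measured 6.25 and 6.37 in PBS, 6.97 and 7.04 after anti-DEC205-BDC and 7.49 and 7.58 after anti-DCIR2-BDC. The order of the groups was the same as for Polr1b, with no overlap. It rose by 0.69 (limma adjusted p = 0.0386) and by 1.23 (limma adjusted p = 0.000917), and the first of these calls was lost under 8 of the 17 alternatives (adjusted p 0.0167 to 0.169). These included leaving out any PBS, anti-DEC205-BDC or anti-DCIR2-BDC array.

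Cd3eap, the partner of Polr1e in that dimer, lies outside the symbol rule, as do Twistnb and Znrd1, further Pol I subunits. Cd3eap stood at 5.78 and 5.84 in PBS, 6.94 and 7.27 after anti-DEC205-BDC and 7.81 and 7.99 after anti-DCIR2-BDC. Its groups were in the same order as those of Polr1e and did not overlap. It rose by 1.30 (limma adjusted p = 0.00301) and by 2.09 (limma adjusted p = 8.58e-05), and both calls held under all 17 alternatives. Twistnb changed by 0.56 after anti-DEC205-BDC (limma adjusted p = 0.103) and rose by 1.05 after anti-DCIR2-BDC (0.00291). Znrd1 did not pass in either comparison, with log2 changes of 0.07 and 0.57.

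The subunits that Pol I shares with Pol III, Polr1c and Polr1d, form the dimer on which both enzymes are assembled. Polr1c read 8.34 and 7.95 in PBS, 8.99 and 9.36 after anti-DEC205-BDC and 9.38 and 9.45 after anti-DCIR2-BDC. Polr1d read 8.37 and 8.45, then 9.23 and 9.71, then 10.09 and 10.37 in the same order of groups. All antibody arrays of both genes stood above both PBS arrays. Polr1c rose by 1.03 (2.04-fold, limma adjusted p = 0.0111) and 1.27 (2.41-fold, 0.00149). Polr1d rose by 1.06 (2.08-fold, limma adjusted p = 0.00846) and 1.82 (3.53-fold, 0.000172). Without anti-DEC205-BDC array 2, both lost the call after anti-DEC205-BDC, at adjusted p of 0.0825 and 0.0666 (ranges 0.00364 to 0.0825 and 0.00276 to 0.0688 over the alternatives). Polr1c also lost it without PBS array 2 (0.0632), and both did when every probe set was tested. The count of Polr1 genes that rose after anti-DEC205-BDC then went from 4 to 1 without anti-DEC205-BDC array 2, 2 without PBS array 2 and 1 with every probe set.

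**Figure D2:**
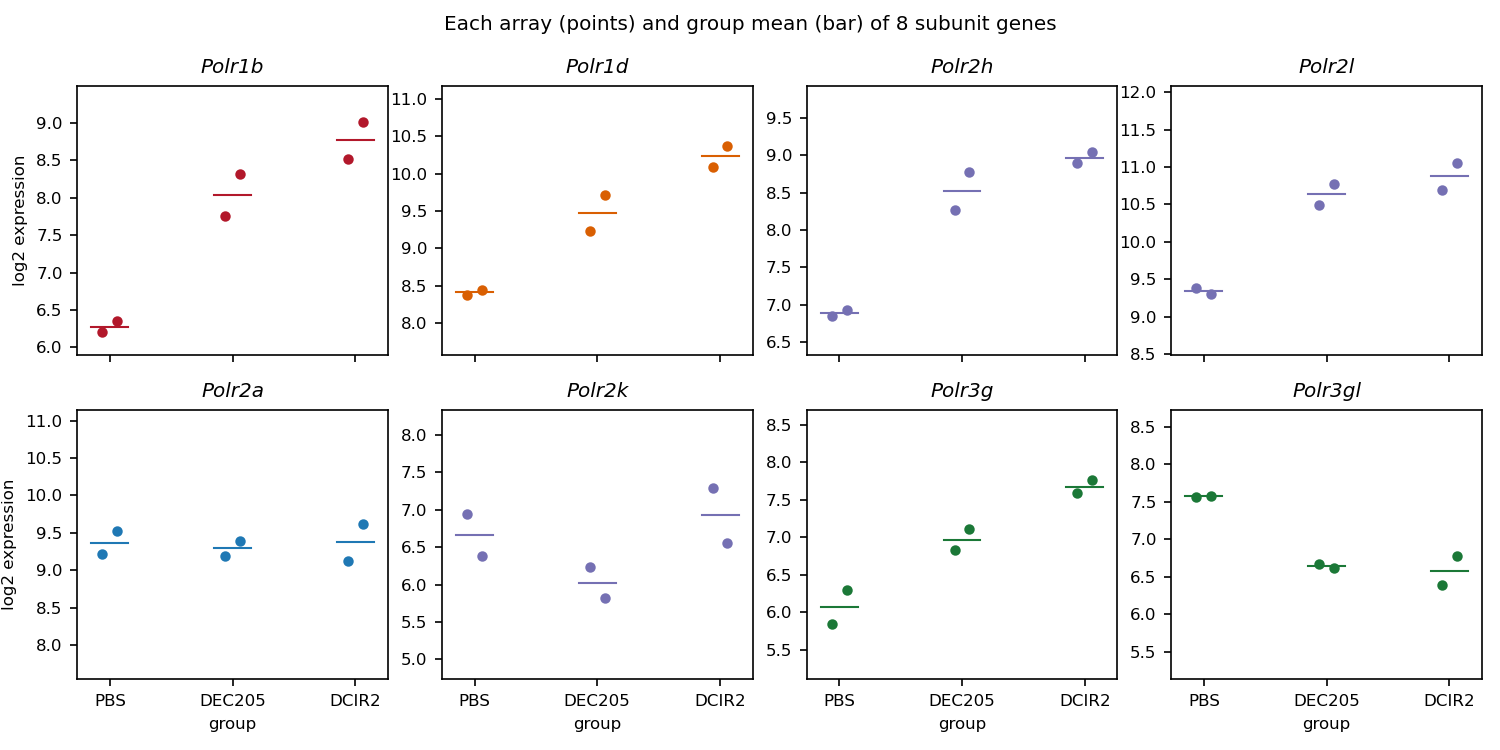
Log2 expression of 8 subunit genes on each of the 6 arrays (points) with the group mean (bars), one column of points per group. Each panel is one gene and spans the same number of log2 units. Polr1b and Polr3g step up from PBS through anti-DEC205-BDC to anti-DCIR2-BDC, Polr3gl is lower in both antibody groups than in PBS, and the groups of Polr2a overlap.

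Of the 5 subunits common to all of Pol I, II and III, 3 rose after anti-DEC205-BDC and 4 after anti-DCIR2-BDC. The shares of all genes that rose were 5.32% and 10.1%. Median log2 changes of these 5 subunits were 1.29 and 1.53. Polr2h, a small subunit with no enzymatic role of its own, gave 6.85 and 6.93 in PBS, 8.26 and 8.78 after anti-DEC205-BDC and 8.89 and 9.04 after anti-DCIR2-BDC. Its antibody arrays stood well clear of the PBS arrays. It rose by 1.63 (SE 0.212, 3.09-fold, limma adjusted p = 0.00166) and by 2.07 (4.21-fold, limma adjusted p = 0.000133), the largest changes among the Polr2 genes. Polr2f, which contacts the clamp of the enzyme, gave 7.48 and 7.20, then 8.66 and 8.76, then 8.78 and 9.17. It rose by 1.38 (2.60-fold, limma adjusted p = 0.00293) and 1.64 (3.11-fold, 0.000358). Polr2l, a zinc-binding subunit of the assembly platform, gave 9.38 and 9.30, then 10.49 and 10.77, then 10.69 and 11.05. It rose by 1.29 (2.45-fold, limma adjusted p = 0.00144) and 1.53 (2.89-fold, 0.000157). The 3 groups of Polr2f did not overlap. For Polr2l both antibody groups stood above PBS, and they overlapped each other.

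Polr2e and Polr2k, the other common subunits, did not pass after anti-DEC205-BDC. Polr2e read 7.33 and 7.27 in PBS, 7.52 and 7.91 after anti-DEC205-BDC and 8.12 and 8.10 after anti-DCIR2-BDC. Its arrays did not overlap between groups, yet its change of 0.41 after anti-DEC205-BDC did not pass (limma adjusted p = 0.276). It rose by 0.81 after anti-DCIR2-BDC (limma adjusted p = 0.0163), a call lost without either PBS or either anti-DCIR2-BDC array (range over the alternatives 0.00745 to 0.0960). Polr2k, another zinc-binding subunit, read 6.94 and 6.38, then 6.23 and 5.82, then 7.29 and 6.55. It was the only common subunit whose anti-DEC205-BDC arrays were below both PBS arrays. Its change of -0.64 (95% interval -1.26 to -0.01) did not pass after adjustment (limma adjusted p = 0.230), nor did its change of 0.26 after anti-DCIR2-BDC (0.623).

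Among the 8 members found with Pol II only, which include the associated protein Polr2m, 2 rose after anti-DEC205-BDC and 5 after anti-DCIR2-BDC. Their medians were 0.52 and 0.89, and the shares of all genes that rose were 5.32% and 10.1%. The catalytic pair gave different calls. Polr2a, the largest subunit, whose repeated tail is phosphorylated as Pol II starts and elongates, read 9.22 and 9.52 in PBS, 9.19 and 9.40 after anti-DEC205-BDC and 9.12 and 9.62 after anti-DCIR2-BDC. Its groups overlapped throughout. Its log2 changes had 95% intervals of -0.53 to 0.38 after anti-DEC205-BDC and -0.45 to 0.45 after anti-DCIR2-BDC, so a 2-fold change lies outside both intervals. Polr2b, its partner in the active site, read 7.95 and 7.92, then 8.41 and 8.32, then 8.60 and 9.02. Its groups stood in that order without overlap. It changed by 0.43 after anti-DEC205-BDC, which did not pass (limma adjusted p = 0.251), and rose by 0.87 after anti-DCIR2-BDC (0.0107). Without anti-DCIR2-BDC array 2 the adjusted p was 0.113, the top of a range of 0.00392 to 0.113 over the alternatives.

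The largest log2 change of these 8 genes in both comparisons with PBS was that of Polr2i, which supports accurate transcription and the cleavage of backtracked RNA. It read 6.53 and 6.20 in PBS, 7.40 and 7.26 after anti-DEC205-BDC and 7.55 and 8.09 after anti-DCIR2-BDC, with no overlap. It rose by 0.96 (limma adjusted p = 0.0260) and by 1.46 (2.74-fold, 0.00136). Polr2j, which pairs with Polr2c in the assembly of Pol II, rose by 0.90 (limma adjusted p = 0.0235) and 1.09 (0.00420). Polr2d, which binds Polr2g in the stalk of the enzyme, and Polr2m, a Pol II-associated protein that competes with an initiation factor, rose after anti-DCIR2-BDC by 0.91 (limma adjusted p = 0.0395) and 0.93 (0.00603). After anti-DEC205-BDC both were above PBS on every array but did not pass, with changes of 0.80 and 0.60. Polr2c and Polr2g did not pass in either comparison, with changes of -0.08 and 0.21 after anti-DEC205-BDC and 0.18 and 0.64 after anti-DCIR2-BDC. Without PBS array 2 or without anti-DEC205-BDC array 2, Polr2i and Polr2j lost the call after anti-DEC205-BDC, and the number of Polr2 genes that rose went from 5 to 3. Polr2i also lost it without anti-DEC205-BDC array 1. Without anti-DCIR2-BDC array 2 the number that rose after anti-DCIR2-BDC went from 9 to 4, with Polr2b, Polr2d, Polr2e, Polr2j and Polr2m no longer called. Polr2d also lost it without PBS array 1 or 2.

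Of the 9 Pol III subunits, 3 rose and 1 fell after anti-DEC205-BDC, and 6 rose and 1 fell after anti-DCIR2-BDC. The medians were 0.67 and 0.90. Of all genes, 5.32% rose and 3.53% fell after anti-DEC205-BDC, and 10.1% rose and 7.82% fell after anti-DCIR2-BDC. For a group of 9 genes, 1 that fell is near these shares. Polr3a, the largest subunit, read 7.12 and 7.12 in PBS, 7.12 and 7.25 after anti-DEC205-BDC and 7.73 and 8.02 after anti-DCIR2-BDC. Only the anti-DCIR2-BDC arrays stood clear of PBS. Its change was 0.07 after anti-DEC205-BDC (95% interval -0.36 to 0.50), and it rose by 0.76 after anti-DCIR2-BDC (limma adjusted p = 0.0196). Polr3b, its catalytic partner, read 7.03 and 7.00, then 7.65 and 7.71, then 7.79 and 8.09. All its antibody arrays were above PBS, by 0.67 after anti-DEC205-BDC, which did not pass (limma adjusted p = 0.0595) but did under 6 of the 17 alternatives (range 0.0290 to 0.208), median centring and quantile normalisation among them. It rose by 0.93 after anti-DCIR2-BDC (0.00644).

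Polr3d and Polr3e form a dimer that resembles an initiation factor of Pol II built into Pol III. Polr3d read 6.80 and 6.98 in PBS, 8.22 and 7.92 after anti-DEC205-BDC and 8.30 and 8.49 after anti-DCIR2-BDC. It rose by 1.18 (2.27-fold, limma adjusted p = 0.00539) and 1.51 (2.84-fold, 0.000491), with no overlap between groups. Polr3e read 6.61 and 7.24, then 7.46 and 7.73, then 7.73 and 8.12, with a wide gap between the PBS arrays. It changed by 0.67 after anti-DEC205-BDC, which did not pass (limma adjusted p = 0.148), and rose by 1.0 after anti-DCIR2-BDC (0.0178). Polr3k, which serves RNA cleavage and termination, rose by 0.78 (limma adjusted p = 0.0434) and 0.90 (0.0116). Polr3c and Polr3f, which with Polr3g or Polr3gl form the initiation subcomplex of Pol III, did not pass in either comparison. Polr3f read 6.83 and 6.84, then 7.01 and 6.97, then 7.07 and 7.58, with both antibody groups above PBS. The changes of Polr3c and Polr3f were -0.17 and 0.15 after anti-DEC205-BDC and -0.12 and 0.49 after anti-DCIR2-BDC. Without anti-DCIR2-BDC array 2, Polr3a, Polr3b, Polr3e and Polr3k were no longer called and the number that rose after anti-DCIR2-BDC went from 6 to 2. Polr3a also lost the call without PBS array 1 or 2, Polr3e without PBS array 1, and Polr3k without PBS array 2 or anti-DCIR2-BDC array 1. The call on Polr3k after anti-DEC205-BDC was lost under 8 of the 17 alternatives (range 0.0189 to 0.217). The number that rose after anti-DEC205-BDC went from 3 to 1 without anti-DEC205-BDC array 2 or without either anti-DCIR2-BDC array.

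Polr3g and Polr3gl moved in opposite directions. They encode alternative versions of the same Pol III subunit, and an enzyme holds Polr3g or Polr3gl. Polr3g is known from embryonic and other growing cells and Polr3gl from most adult tissues. Polr3g read 5.84 and 6.30 in PBS, 6.83 and 7.11 after anti-DEC205-BDC and 7.59 and 7.76 after anti-DCIR2-BDC. Its groups stood in that order with no overlap. Its log2 change was 0.90 (SE 0.215, 1.87-fold, limma adjusted p = 0.0272) and 1.61 (3.05-fold, limma adjusted p = 0.000534). Polr3gl read 7.57 in both PBS arrays, 6.68 and 6.61 after anti-DEC205-BDC and 6.39 and 6.77 after anti-DCIR2-BDC. Every antibody array was below PBS, and the antibody groups overlapped. It fell by 0.93 (SE 0.196, limma adjusted p = 0.0151) and by 0.99 (limma adjusted p = 0.00509) on the log2 scale, and was the only member of the 27 that fell in either comparison.

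The log2 ratio of Polr3g to Polr3gl on each array, set to a mean of 0 over the PBS arrays, was -0.23 and 0.23 in PBS. It was 1.66 and 2.0 after anti-DEC205-BDC and 2.71 and 2.49 after anti-DCIR2-BDC, so the groups did not overlap. The mean differences from PBS were 1.83 and 2.60. An exact two-sided permutation test gave p = 0.333 for each, the smallest value that 2 arrays against 2 allow. Every antibody array was above PBS for Polr3g and below PBS for Polr3gl. The separation of the ratio from PBS and this p were thus fixed by the values of each gene. The ratio shows unequal change and not how much of each transcript a cell holds, because signals of different probe sets have no common scale. The call on Polr3g after anti-DEC205-BDC was lost without PBS array 1, anti-DEC205-BDC array 2 or either anti-DCIR2-BDC array (range over the alternatives 0.0125 to 0.171). That on Polr3gl was lost without any PBS or anti-DEC205-BDC array (0.00864 to 0.0760), and after anti-DCIR2-BDC without anti-DCIR2-BDC array 1 (0.0627, range 0.00293 to 0.0627).

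The promoters of this opposed pair are shown to let their sequences be compared beside those values. Each run is the 250 bases before the annotated start, 5′ to 3′ in the direction of the gene, from RefSeq on build GRCm38.p6. Polr3g lies at chr13:81711014-81711263 and Polr3gl at chr3:96594182-96594431, both on the minus strand. Capitals mark CTTCCGG, the reverse complement of CCGGAAG, a core motif bound by ETS factors, in Polr3g, and CACGTG, the E-box bound by Myc with Max and by other factors, in Polr3gl.
Polr3g: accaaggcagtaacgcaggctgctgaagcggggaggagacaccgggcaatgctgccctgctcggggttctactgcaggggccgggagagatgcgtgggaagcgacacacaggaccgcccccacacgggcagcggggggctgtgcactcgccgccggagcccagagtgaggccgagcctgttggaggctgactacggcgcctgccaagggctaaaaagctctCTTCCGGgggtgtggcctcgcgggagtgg
Polr3gl: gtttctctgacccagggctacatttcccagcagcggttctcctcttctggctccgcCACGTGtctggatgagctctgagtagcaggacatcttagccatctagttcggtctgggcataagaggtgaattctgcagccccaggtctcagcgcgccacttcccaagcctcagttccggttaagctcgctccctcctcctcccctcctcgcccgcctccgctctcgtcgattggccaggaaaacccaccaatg
In Polr3g the motif begins 29 bases before the start, and in Polr3gl it begins 194 bases before it.

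Promoters were available for 22 of the 27 members, all except Polr2d, Polr2g, Polr2k, Polr3a and Polr3d. They were searched on both strands, from 250 bases before to 50 after the start, for motifs common in promoters of growth and housekeeping genes. CCGGAAG was present in 7 of the 22, namely Polr1c, Polr1e, Polr2c, Polr2f, Polr2j, Polr3b and Polr3g, and in 9.93% of all 27025 genes with a promoter. Of these 7, 5 rose after anti-DEC205-BDC and 6 after anti-DCIR2-BDC, against 6 and 11 of the 15 members without it. CACGTG was present in 4 of the 22 (Polr2h, Polr3c, Polr3e and Polr3gl) and in 8.09% of all genes. Those 4 held members that rose, fell and did not pass in each comparison with PBS. GCATGCGC, part of the motif of NRF1, was in 2 of the 22, Polr2b and Polr2j, and in 3.05% of all genes. AAGATGGC, a motif of YY1, was in 0 of the 22 and in 3.19% of all genes, which says only that these letters are not in these windows. None of these motifs contains another, and no match was tested as a binding site.

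Windows of 60 bases show where CCGGAAG, in capitals on either strand, lies near the start. Apart from Polr3g, shown above, these are the 4 members that hold it within 60 bases before the start. They come from RefSeq on build GRCm38.p6 and read 5′ to 3′ in the direction of the gene. Polr1c is at chr17:46248046-46248105 on the minus strand. On the plus strand are Polr2f at chr15:79141265-79141324, Polr2j at chr5:136116631-136116690 and Polr3b at chr10:84622238-84622297.
Polr1c: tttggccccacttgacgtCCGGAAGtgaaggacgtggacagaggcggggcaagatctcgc
Polr2f: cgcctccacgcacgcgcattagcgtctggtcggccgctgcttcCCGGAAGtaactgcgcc
Polr2j: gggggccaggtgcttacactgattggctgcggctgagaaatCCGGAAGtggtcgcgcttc
Polr3b: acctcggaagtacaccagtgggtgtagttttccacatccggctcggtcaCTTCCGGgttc
Counted back from the start, the motif begins at 42 bases in Polr1c, 17 in Polr2f, 19 in Polr2j and 11 in Polr3b. All 4 genes rose after anti-DCIR2-BDC, and all except Polr3b rose after anti-DEC205-BDC. Of all 27 members, 20 and 12 rose, where 10.1% and 5.32% of all genes did. In Polr1e and Polr2c the motif lies after the start. Of these, Polr1e rose in both comparisons with PBS and Polr2c was called in neither. A link between the motif and the change was not tested.

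Between the antibodies, no member passed the test. In the comparison of anti-DCIR2-BDC with anti-DEC205-BDC, limma called 0 of 27 members, where 0.0201% of all genes were higher and 0% were lower. No member was called under any of the 17 alternatives, and 7 had an unadjusted p under 0.05, where 10.2% of all genes did. The members' median log2 difference was 0.33 against -0.01 over all genes, and it was 0.21 without anti-DEC205-BDC array 1 or without anti-DCIR2-BDC array 2. Both anti-DCIR2-BDC arrays lay above both anti-DEC205-BDC arrays for 18 of 27 members and below for 0, where 19.3% and 20.9% of all genes did so. The lowest adjusted p was 0.236, for Polr1d, with a difference of 0.76 (95% interval 0.32 to 1.20). Polr3a differed by 0.69 (0.26 to 1.12), Polr1b by 0.73 (0.19 to 1.27), Polr3g by 0.71 (0.23 to 1.19) and Polr1e by 0.53 (0.14 to 0.93). For Polr2k, whose changes against PBS had opposite signs, the difference was 0.90 (0.28 to 1.52, limma adjusted p = 0.322). For Polr3gl the interval was -0.50 to 0.37. A miss of the threshold does not show that the antibodies acted alike on these genes.

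A pair of single-symbol probe sets was present for 5 members, and the pair did not always give the same result. For Polr2c the other probe set changed by 0.58 after anti-DEC205-BDC and by 1.06 after anti-DCIR2-BDC (limma adjusted p = 0.0154 over every probe set), where the brighter one gave -0.08 and 0.18. For Polr3e the other probe set gave -0.26 and -0.63, neither called, against 0.67 and 1.0, and the mean over both was not called after anti-DCIR2-BDC (limma adjusted p = 0.636, range over the alternatives 0.00414 to 0.636). The sign of the Polr3e change thus depends on the probe set. For Polr2h the other probe set gave 0.45 and 0.68, below the 1.63 and 2.07 of the one used and not called. In PBS the other probe sets of Polr3e and Polr2h were brighter than those used. They read 7.46 and 7.35 for Polr3e, against 6.61 and 7.24. For Polr2h they read 7.48 and 7.13, against 6.85 and 6.93. The probe sets used for these genes were thus brightest only through the antibody arrays. For Polr1d and Polr2l the other probe sets gave changes of 0.84 and 1.17 after anti-DEC205-BDC and 1.39 and 1.33 after anti-DCIR2-BDC, with the same sign as the brighter ones. Polr2k shares a further probe set with another symbol, LOC100862456. That probe set, which names no single gene, changed by 0.58 and 0.42, and neither was called.

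**Figure D3:**
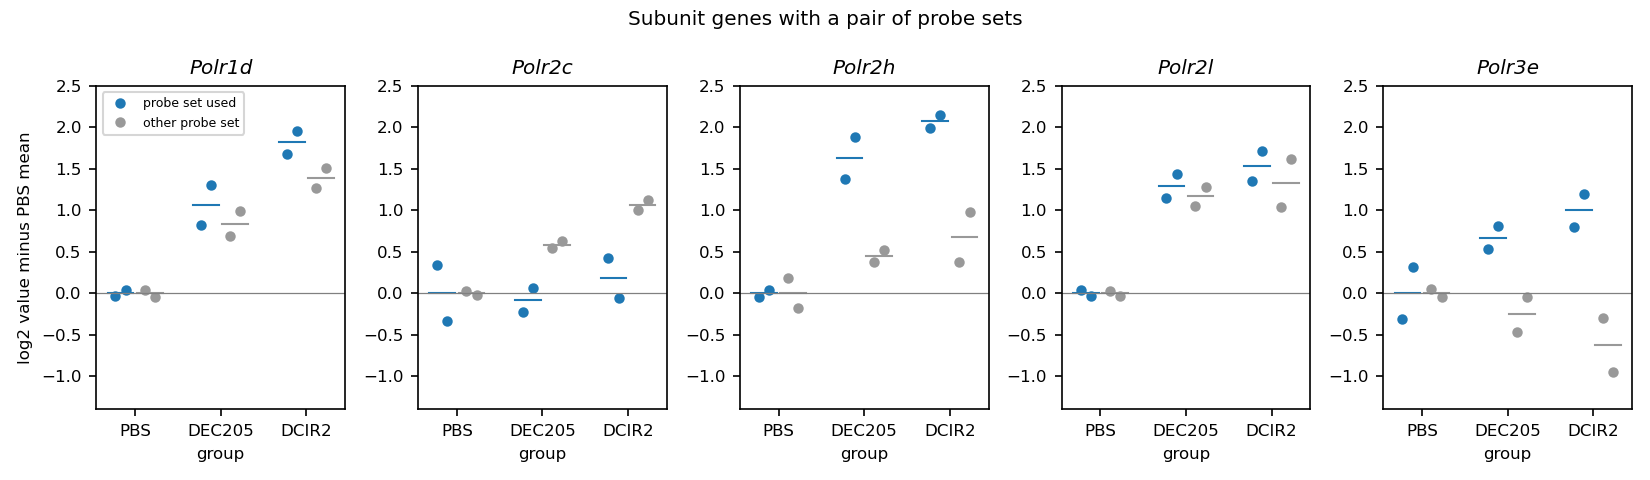
Log2 value minus the PBS mean on each array (points) for the 5 members with a pair of single-symbol probe sets, by group. Blue marks the brighter probe set, used for the gene, grey the other one, and bars are group means. The pairs of Polr1d and Polr2l move together, those of Polr3e part in opposite directions, and the other Polr2c probe set moves upward where the one used does not.

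Other genes of the transcription machinery were counted on lists drawn up by known role. Over all genes 5.32% rose and 3.53% fell after anti-DEC205-BDC, and 10.1% rose and 7.82% fell after anti-DCIR2-BDC. The medians over all genes were -0.03 and -0.05. Of 8 Pol I initiation and termination factors, 3 rose after anti-DEC205-BDC and 4 after anti-DCIR2-BDC, with medians of 0.47 and 0.56. Rrn3, which brings Pol I to the promoter, rose by 0.85 (limma adjusted p = 0.0257) and 1.20 (0.00201). Ubtf, which opens ribosomal gene chromatin, rose by 0.72 (limma adjusted p = 0.0367) and 0.99 (0.00359). Taf1d, of the promoter selectivity factor, rose by 0.78 (limma adjusted p = 0.00647) and 0.79 (0.00236). Taf1a, of the same factor, changed by 1.07, which did not pass (limma adjusted p = 0.0616, or 0.00561 without PBS array 2, range 0.00561 to 0.312), and rose by 1.52 (0.00615), a call lost without anti-DCIR2-BDC array 2 (0.0638, range 0.000587 to 0.0638). The count of 3 went to 1 without PBS array 1 or either anti-DEC205-BDC array and to 0 with every probe set. Rrn3 lost its call after anti-DEC205-BDC without either PBS or either anti-DEC205-BDC array (range 0.0104 to 0.119), and Ubtf when any 1 of the 6 arrays was left out (0.0146 to 0.213).

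Of 15 Pol III factors measured, 1 rose after anti-DEC205-BDC, which is near the 5.32% of all genes that rose. After anti-DCIR2-BDC 3 rose and 1 fell, where 10.1% and 7.82% of all genes did so. The medians were 0.12 and 0.38. Median centring gave 2 and 5 that rose. Maf1, the repressor of Pol III, was the one that fell. It read 8.32 and 8.43 in PBS, 7.74 and 7.70 after anti-DEC205-BDC and 7.29 and 7.28 after anti-DCIR2-BDC, and the groups did not overlap. Its change of -0.65 after anti-DEC205-BDC missed the threshold (limma adjusted p = 0.0505) and passed it under 7 of the 17 alternatives (range 0.0198 to 0.185), among them quantile normalisation and both filters on dim genes. Maf1 fell by 1.09 after anti-DCIR2-BDC (limma adjusted p = 0.00187), a call that held under all 17 alternatives. Bdp1, of the initiation factor TFIIIB, changed by 0.59 (limma adjusted p = 0.0627, passing under 6 of the 17 alternatives, range 0.0267 to 0.209) and rose by 1.01 (0.00223). Gtf3c6, of TFIIIC, rose by 0.82 (limma adjusted p = 0.0216) and 0.98 (0.00416). Its call after anti-DEC205-BDC, the only rise there, was lost without either PBS array or anti-DEC205-BDC array 2 (range 0.00802 to 0.142). Crcp, a Pol III subunit outside the symbol rule, rose by 0.95 (limma adjusted p = 0.0186) and 1.17 (0.00285), and its first call was lost without PBS array 1 or anti-DEC205-BDC array 2 (range 0.00890 to 0.117).

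Of 29 general transcription factors of Pol II, 4 rose after anti-DEC205-BDC and 9 after anti-DCIR2-BDC, with medians of 0.27 and 0.51. Over all genes 5.32% and 10.1% rose. Taf10, of the TFIID complex, rose by 0.73 (limma adjusted p = 0.00509) and 0.99 (0.000315), calls held under all 17 alternatives. Gtf2f2, of TFIIF, rose by 0.73 (limma adjusted p = 0.0499) and 1.18 (0.00213), the first lost when any 1 of the 6 arrays was left out (range 0.0230 to 0.262). The count after anti-DEC205-BDC went from 4 to 1 without PBS array 1 or either anti-DEC205-BDC array and to 2 without PBS array 2 or either anti-DCIR2-BDC array, and it was 7 with quantile normalisation. The count after anti-DCIR2-BDC went from 9 to 3 without either anti-DCIR2-BDC array and to 5 without PBS array 1. Of 21 pausing and elongation factors, 2 rose after anti-DEC205-BDC, and 8 rose and 1 fell after anti-DCIR2-BDC, with medians of 0.29 and 0.58. The same shares of all genes rose, and 7.82% fell after anti-DCIR2-BDC. Supt16, of the histone chaperone FACT, rose by 0.77 (limma adjusted p = 0.0224) and 0.93 (0.00397), and Tcea1, which rescues stalled Pol II, by 0.74 (0.00888) and 0.74 (0.00373). The first call was lost without either PBS or either anti-DEC205-BDC array for Supt16, and without PBS array 1 or anti-DEC205-BDC array 1 for Tcea1 (ranges 0.00837 to 0.131 and 0.00401 to 0.0714). The one that fell, named after its values were seen, was Hexim1, an inhibitor of the elongation kinase. It fell by 0.87 after anti-DCIR2-BDC (limma adjusted p = 0.0494). It lost that call under 7 of 17 alternatives, among them leaving out PBS array 1 or either anti-DCIR2-BDC array (range 0.00723 to 0.311). The count of 8 went to 3 without either anti-DCIR2-BDC array. The count of 2 went to 0 without PBS array 1 or anti-DEC205-BDC array 1, and to 1 without anti-DEC205-BDC array 2.

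Polymerases are put together in the cytoplasm by chaperones and imported into the nucleus. Of 15 such assembly and import factors, 3 rose after anti-DEC205-BDC and 7 after anti-DCIR2-BDC, with medians of 0.42 and 0.65. Over all genes 5.32% and 10.1% rose. Ruvbl1, an ATPase of the R2TP chaperone complex, read 6.35 and 7.41 in PBS, 8.76 and 9.39 after anti-DEC205-BDC and 9.78 and 9.80 after anti-DCIR2-BDC. Its groups did not overlap, although the PBS arrays lay far apart. It rose by 2.20 (4.58-fold, limma adjusted p = 0.00277) and by 2.91 (limma adjusted p = 0.000188), and the first call was lost when every probe set was tested (0.0554, range 0.000713 to 0.0554). Ruvbl2, its partner, rose by 1.17 (limma adjusted p = 0.00467) and 1.79 (0.000157). Gpn1, a GTPase of nuclear import of Pol II, changed by 0.74 (limma adjusted p = 0.0674, passing under 3 of the 17 alternatives, range 0.0272 to 0.334) and rose by 1.40 (0.00141), and Rpap3, which links R2TP to the polymerase, changed by 0.27 (0.491) and rose by 1.09 (0.00246). Of 5 mitochondrial transcription factors, 0 rose after anti-DEC205-BDC and 1, Tefm, rose after anti-DCIR2-BDC, by 1.47 (limma adjusted p = 0.00410). For a list of 5 genes these counts are near the shares over all genes. The count was 2 without PBS array 2, and the call on Tefm was lost without anti-DCIR2-BDC array 2 (0.0595, range 0.000265 to 0.0595). Polrmt, the mitochondrial polymerase, changed by 0.11 and 0.44 and did not pass. No gene of these lists passed between the antibodies, where 0.0201% of all genes did.

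**Figure D4:**
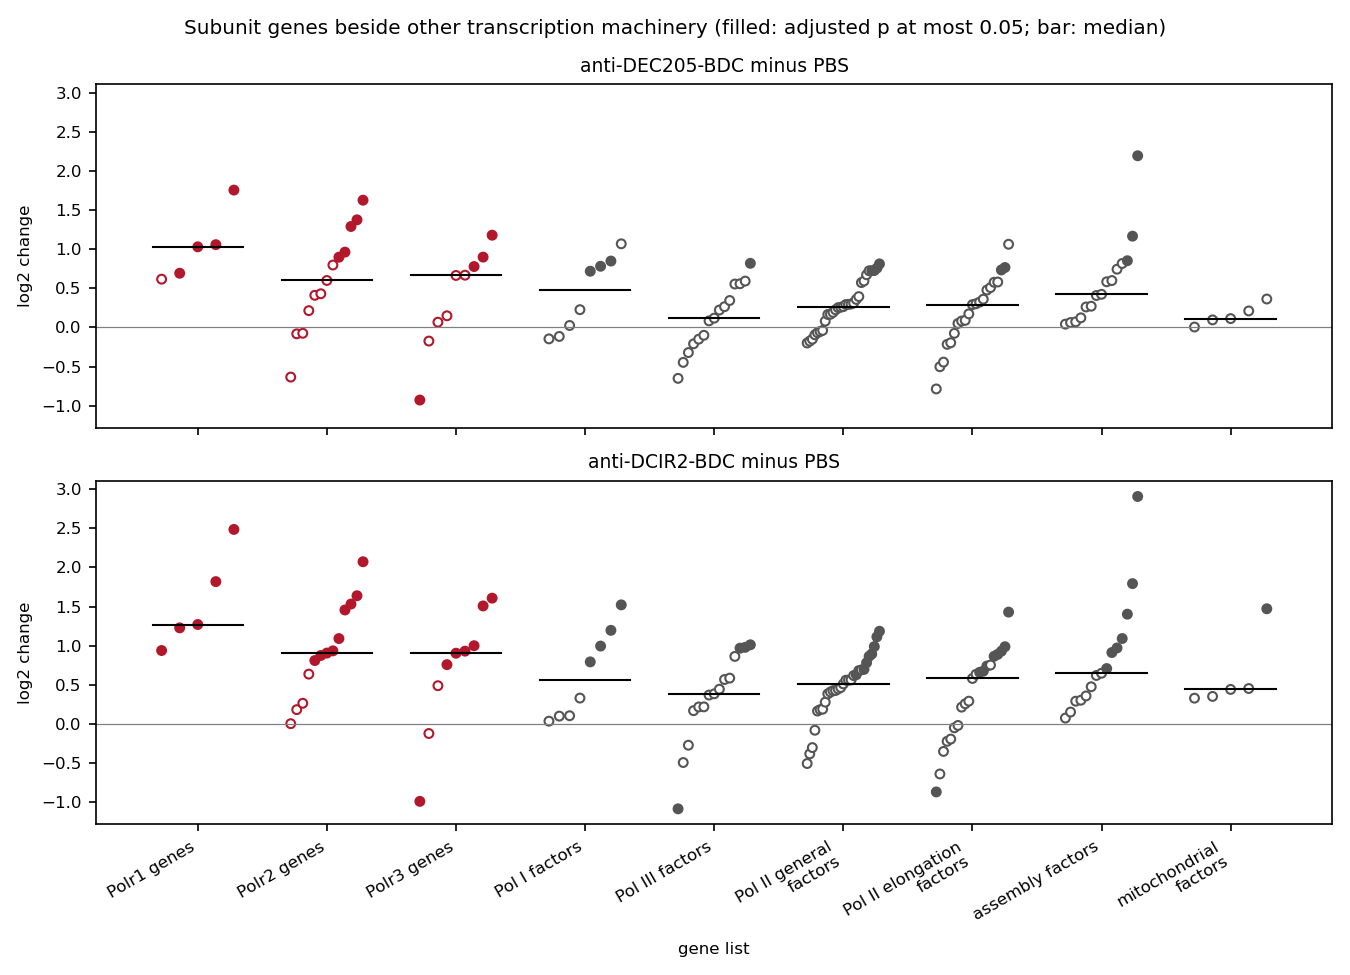
Log2 change of each gene (points) of the subunit groups and of the lists of other transcription machinery, after anti-DEC205-BDC (top) and anti-DCIR2-BDC (bottom), each against PBS. Within a group the points are in order of change, bars are medians, and filled points passed limma's test at an adjusted p of at most 0.05. Medians of the Polr1 genes were 1.03 and 1.27, and those of Pol II general factors were 0.27 and 0.51.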

How the data were processed

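The authors' deposited values are log2 expression. RMA was run in Partek, of a version not given in the sources used here, according to the submitters' processing notes and their design text. All 6 arrays (2 in each of the 3 groups, which their titles name) hold 35556 probe sets, between 2.15 and 13.9, with none missing. The platform annotation gives 21789 probe sets a single symbol, 1621 several and 12146 none. Of the single-symbol ones, 21698 matched a gene of RefSeq GRCm38.p6, used for names and promoters. Each gene kept its brightest single-symbol probe set over the 6 arrays, which gave 19938 genes.

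Then limma 3.58.1 (R 4.3.3) was fitted with 1 mean per group and a trend in the variance, two-sided, with Benjamini-Hochberg adjustment over all genes and a threshold of 0.05. The variance of each gene was moderated toward that of genes of similar signal. The script was tested on simulated data in which 200 of the 19938 genes were changed. For anti-DEC205-BDC against PBS, anti-DCIR2-BDC against PBS and between the antibodies, it recovered 87%, 85% and 91% of 2-fold changes. It recovered 100% of 4-fold changes in each, and false calls numbered 13, 23 and 14. The simulated spread was drawn from the fitted variances, so this could not test the variance model. The runs shared the same means and spread, so their figures are repeat draws and do not give the power of each comparison. Fewer genes were changed than the 1763 and 3568 called against PBS in the data. RNA amplification and RMA's shrinkage can compress changes of dim probe sets, and arrays have no read depth, so their number limits the precision. The 17 alternatives left out each array, changed the scaling, low-signal filter, probe set rule, variance model and array weights, added the replicate number as a block, or used only the 4 arrays compared.

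Members described with values on each array were the catalytic pair of each polymerase, the shared subunits, Polr3g, Polr3gl, those with the largest changes per polymerase and comparison, and any that fell. From each list of other factors, up to 4 with the largest changes were eligible to be named, passing ones first. The members and lists were chosen with earlier results of these data known. Their counts are descriptions, and no test was made of a list.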

Additional observations from a re-analysis of the deposited data

Results flagged for a closer look

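The second probe sets of members, outside the 1 probe set used for each gene, carried a change of their own in 3 genes. In a limma fit over every probe set, the other Polr2c probe set was 1.06 log2 units higher after anti-DCIR2-BDC than after PBS (adjusted p = 0.0154), where the one used gave 0.18. The other Polr1d probe set was higher by 1.39 (adjusted p = 0.0119) and the other Polr2l probe set by 1.33 (adjusted p = 0.0182). For Polr1d and Polr2l the used probe sets also rose, by 1.82 and 1.53.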

How the results depend on the processing

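With 2 arrays a group, leaving out 1 array weakens the test for every gene, so lost calls do not single out that array. Leaving out 1 array at a time, the members that rose numbered 5 to 10 after anti-DEC205-BDC (12 with all arrays) and 10 to 20 after anti-DCIR2-BDC (20 with all arrays). Those that fell numbered 0 to 1 in each of these comparisons, and between the antibodies 0 rose and 0 fell throughout. Testing every probe set left 5 that rose and 0 that fell after anti-DEC205-BDC. No called change reversed its sign under these alternatives. None of them read a gene from its other probe set alone. On that probe set Polr3e changed by -0.63 after anti-DCIR2-BDC, not called, against a called 1.0. Some changes that were not called crossed 0, such as that of Polr2c after anti-DEC205-BDC, which ranged from -0.42 to 0.25. Of the other 3850 values, 3559 kept their side of the threshold or moved little, 146 missed a threshold they had passed, 59 passed one they had missed and 86 moved. With the replicate number as a block, 16 rose and 1 fell after anti-DEC205-BDC, 20 and 1 after anti-DCIR2-BDC, and 0 between the antibodies. Arrays with the same number correlated in their deviations at 0.145, 0.131 and 0.0714, which was not taken to pair them. Signal over background and the number of arrays limit what can be seen of the dim members.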
